A study of Homo sapiens with 2 samples.

Results

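The genes described here encode the chemokines, small secreted proteins that direct the movement of leukocytes, and the membrane receptors that bind them. They were chosen by gene symbol, as the protein-coding genes named CCL, CXCL, CX3CL, XCL, CCR, CXCR, CX3CR, XCR or ACKR with a number, and the RefSeq table held 68 of them. Of these, 66 lay on chromosomes 1 to 22 and X, 43 of them ligand genes and 23 receptor genes, among 19839 protein-coding genes there. CCL3L1 and CCL4L1 are listed by RefSeq on a contig outside the main chromosome and were not analysed here.

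The cells were NB4, left untreated, which is a line from acute promyelocytic leukaemia that carries the PML::RARA fusion. CUT&Tag, in which an antibody guides the Tn5 transposase to chromatin so that nearby DNA is tagged and sequenced, was done once with an antibody against LDB1 and once with non-specific IgG. LDB1 is a nuclear adaptor that joins DNA-binding factors into complexes linking enhancers and promoters. The values were the positions and widths of 53742 LDB1 peaks, 52765 of them on chromosomes 1 to 22 and X. With 1 library per antibody there was no replicate and no test between samples, and the number of reads behind a peak was unknown. The IgG library was not analysed here, and whether it served as the peak caller's control is not given in the sources used here. A peak says that DNA at that place was listed as enriched, not that the gene was transcribed, and the identity of the cells cannot be checked from peaks. All coordinates are hg38, counted from 1.

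Chemokines fall into the CC, CXC, CX3C and XC families by the spacing of conserved cysteines near their amino end, and they act on G protein-coupled receptors named for the family they bind. Inflammatory chemokines are made on demand and call neutrophils, monocytes and activated lymphocytes into tissue, whereas homeostatic ones place cells in marrow and lymphoid organs. Atypical receptors bind chemokines without signalling through G proteins and clear or present them. In myeloid cells the best known pairs are CXCL12 with CXCR4, which holds immature cells in the marrow, and CXCL8 with CXCR1 and CXCR2, which draws neutrophils out of the blood. Many of these genes arose by local duplication and still stand in clusters, CXC ligands on 4q, CC ligands on 17q and receptors on 3p21.

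Promoter sequences of 6 members are given first, to show windows of members with a peak at the start beside windows of members without one. They are RefSeq windows of the GRCh38.p14 build, 250 bases before to 50 bases after a transcription start, written 5′ to 3′ on the strand of the gene. Capitals mark letters found on either strand that belong to motifs of known factors. GATAA is the core bound by GATA factors. The E-box of basic helix-loop-helix factors is CANNTG. Many NF-kB sites share the core TTTCC. CXCL1, CXCL2 and CXCL3 are close copies that encode neutrophil attractants, and the first and second of them had a peak at the start while CXCL3 had none. CXCL8, of the same 4q cluster, stands for the CpG-poor promoters, and CXCR4 and CXCL12 are a receptor and its ligand that both had a peak.
CXCL1 (chr4:73869143-73869442, plus strand): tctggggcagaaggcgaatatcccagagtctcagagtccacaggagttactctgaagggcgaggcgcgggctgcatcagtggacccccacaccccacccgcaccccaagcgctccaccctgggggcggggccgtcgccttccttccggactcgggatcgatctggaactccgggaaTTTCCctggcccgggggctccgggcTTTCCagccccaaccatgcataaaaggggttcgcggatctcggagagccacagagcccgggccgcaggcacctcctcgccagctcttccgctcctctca
CXCL2 (chr4:74099146-74099445, minus strand): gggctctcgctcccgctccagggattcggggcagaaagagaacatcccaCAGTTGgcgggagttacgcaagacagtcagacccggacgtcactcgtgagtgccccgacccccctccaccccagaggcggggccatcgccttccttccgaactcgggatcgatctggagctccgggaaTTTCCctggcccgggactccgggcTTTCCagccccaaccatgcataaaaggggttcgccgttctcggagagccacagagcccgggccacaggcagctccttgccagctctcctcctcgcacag
CXCL3 (chr4:74038640-74038939, minus strand): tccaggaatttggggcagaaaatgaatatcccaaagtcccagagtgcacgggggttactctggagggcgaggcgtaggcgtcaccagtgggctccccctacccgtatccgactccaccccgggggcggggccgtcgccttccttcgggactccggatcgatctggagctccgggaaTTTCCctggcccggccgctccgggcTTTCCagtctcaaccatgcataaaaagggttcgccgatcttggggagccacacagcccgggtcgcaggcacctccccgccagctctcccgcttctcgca
CXCL8 (chr4:73740319-73740618, plus strand): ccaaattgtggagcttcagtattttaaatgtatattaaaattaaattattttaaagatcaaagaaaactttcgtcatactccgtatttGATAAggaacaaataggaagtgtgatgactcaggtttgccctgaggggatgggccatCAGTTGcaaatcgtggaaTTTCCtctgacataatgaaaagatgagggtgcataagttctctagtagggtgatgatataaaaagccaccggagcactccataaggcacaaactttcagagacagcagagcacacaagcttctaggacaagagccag
CXCR4 (chr2:136118100-136118399, minus strand): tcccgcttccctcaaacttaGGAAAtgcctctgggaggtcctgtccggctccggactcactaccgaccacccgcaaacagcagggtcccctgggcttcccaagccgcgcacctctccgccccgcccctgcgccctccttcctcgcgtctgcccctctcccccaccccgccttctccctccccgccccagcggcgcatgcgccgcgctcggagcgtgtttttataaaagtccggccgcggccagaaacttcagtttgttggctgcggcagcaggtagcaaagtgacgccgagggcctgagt
CXCL12 (chr10:44385048-44385347, minus strand): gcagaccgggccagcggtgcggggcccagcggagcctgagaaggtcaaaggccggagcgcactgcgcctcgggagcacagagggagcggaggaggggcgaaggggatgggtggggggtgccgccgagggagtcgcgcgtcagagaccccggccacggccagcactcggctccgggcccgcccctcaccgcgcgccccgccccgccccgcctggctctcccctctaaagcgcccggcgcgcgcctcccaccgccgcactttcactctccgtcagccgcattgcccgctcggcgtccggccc

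Chemokine and receptor genes carried LDB1 peaks less often than protein-coding genes as a whole. A peak midpoint lay within 1 kb of either end of 10 of the 66 genes, 15.2% (exact 95% interval 7.51 to 26.1%), where 37.7% of all protein-coding genes had one. A midpoint lay in the gene or within 10 kb of it for 26 of the 66, 39.4% (27.6 to 52.2%), against 70.2% of all protein-coding genes. The gap between members and all genes was thus seen both at gene ends and around the genes. Inside the gene body the shares were 15 of 66, 22.7% (13.3 to 34.7%), against 54.6%. The median member had 0 peaks in the gene or within 10 kb, and the median of all genes was 1. The intervals cover counting error within this list only and treat genes as independent, which neighbours in a cluster are not. Outside the gene clusters described below, 17 of 27 members (63.0%, 42.4 to 80.6%) had a peak within 10 kb and 7 (25.9%, 11.1 to 46.3%) at an end. Both of these intervals held the share of all protein-coding genes. The members are short genes (median length 4.81 kb, against 24.5 kb for all protein-coding genes), and a longer gene offers more room for peaks, so genes of like length were set side by side. Of members under 5 kb, 6 of 35 (17.1%, 6.56 to 33.6%) carried a peak at an end and 9 of 35 (25.7%, 12.5 to 43.3%) within 10 kb, where 38.1% and 59.8% of all genes of that length did. From 5 to 20 kb the members' shares were 4 of 22 (18.2%, 5.19 to 40.3%) and 12 of 22 (54.5%, 32.2 to 75.6%), against 36.7% and 67.6%. Over 20 kb they were 0 of 9 (up to 33.6%) and 5 of 9 (55.6%, 21.2 to 86.3%), against 38.2% and 74.6%. The members' share was the lower one in each length class, but the intervals held the share of all genes for both counts from 5 to 20 kb and for the 10 kb count over 20 kb.

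**Figure D1:**
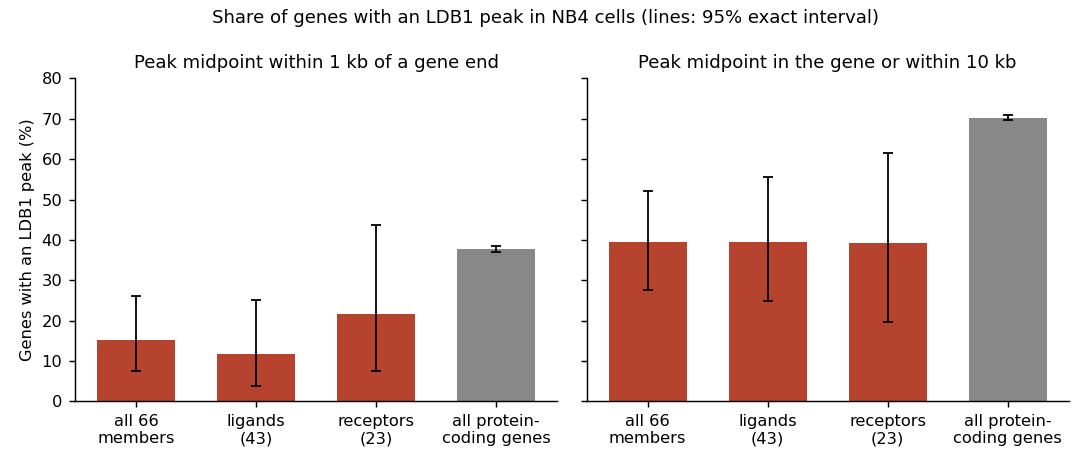
Percentage of genes with an LDB1 peak midpoint within 1 kb of a gene end (left) and in the gene or within 10 kb (right) for all 66 members, the 43 ligand genes, the 23 receptor genes and all 19839 protein-coding genes; lines are exact 95% intervals. The member bars stand at 15.2% and 39.4%, below the grey bars at 37.7% and 70.2%.

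Ligand and receptor genes had like shares with a peak within 10 kb, and genes with several peaks were mostly receptors. In or within 10 kb of the gene, 17 of 43 ligands (39.5%, 25 to 55.6%) and 9 of 23 receptors (39.1%, 19.7 to 61.5%) had a peak. At a gene end it was 5 of 43 ligands (11.6%, 3.89 to 25.1%) and 5 of 23 receptors (21.7%, 7.46 to 43.7%), and these intervals overlap. Inside the gene body it was 8 ligands (18.6%) and 7 receptors (30.4%), against 54.6% of all protein-coding genes. Within 50 kb it was 25 ligands (58.1%) and 18 receptors (78.3%), against 86.2% of all protein-coding genes. With the widest 25% of peaks alone, within 10 kb, it was 1 ligand (2.33%) and 6 receptors (26.1%), against 34.95% of all genes. The receptor share was the higher one in each of these pairs but the first, and the lower one at gene ends within 500 bp (5 ligands and 2 receptors). The difference was not tested. Genes with 3 or more peaks were 1 ligand, CCL25, and 6 receptors, CCR10, CXCR5, CCR7, CXCR4, CXCR3 and ACKR5, where 32.6% of all protein-coding genes had as many. That makes 2.33% of the ligands and 26.1% of the receptors, so the share among receptors was also below that background. Peaks of 1 kb or wider were counted for 1 ligand and 5 receptors, against 26.0% of all genes. In all, 57 different peaks were counted for members, with a median width of 547 bp (324 to 2804 bp), while all peaks on these chromosomes had a median of 550 bp. Only 20 of the 57 had their midpoint inside a member gene. The other 37 lay outside, some of them in a neighbouring gene.

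**Figure D2:**
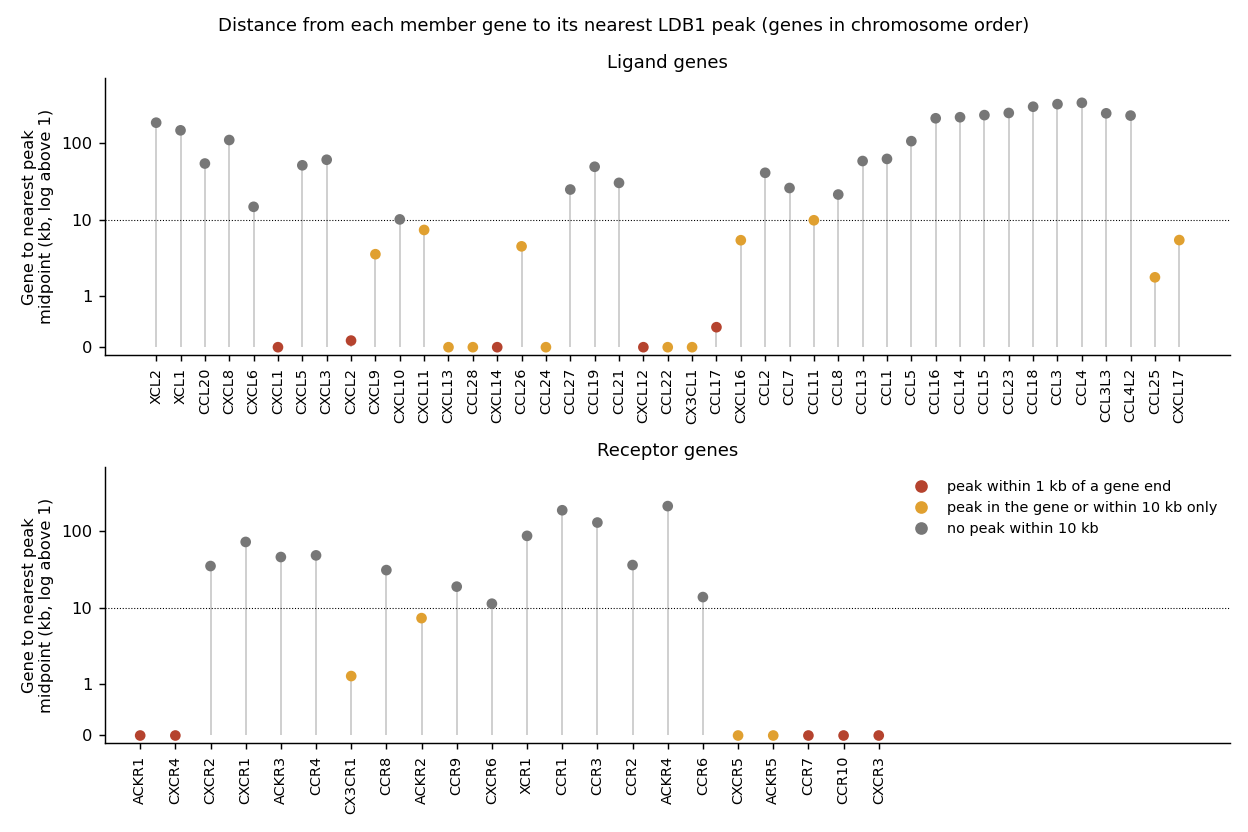
Distance in kb from each member gene to the midpoint of its nearest LDB1 peak, on an axis that is logarithmic above 1 kb, with 43 ligands above and 22 receptors below in chromosome order; 0 means a midpoint inside the gene and the dotted line marks 10 kb. Dark red points are the 10 genes with a peak within 1 kb of an end, and the run of high grey points among the ligands is the 17q cluster, up to 336 kb at CCL4.

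CXC ligand genes of neutrophil attraction had a peak at a gene end in 2 of 6 cases (33.3%, 4.33 to 77.7%). This is near the 37.7% of all protein-coding genes. Within 10 kb it was the same 2 genes, against 70.2%. CXCL1, whose product activates neutrophils through CXCR2, had a peak of 678 bp (chr4:73869128-73869805) whose midpoint lay 73.5 bp downstream of the start and which covered all 300 bases of the promoter window. CXCL2, a close copy, had a peak of 350 bp (chr4:74099150-74099499) centred 129.5 bp upstream of its start, covering 296 bases of its window. CXCL3 had none nearer than 60.6 kb. The 3 windows were similar in sequence: CXCL1 and CXCL3 were identical at 254 of 308 aligned positions (82.5%), CXCL2 and CXCL3 at 234 of 317 (73.8%) and CXCL1 and CXCL2 at 222 of 308 (72.1%). Each held TTTCC at 2 places and no GATAA, and CXCL2 alone of the 3 held an E-box. How reads with several matches were handled is not given in the sources used here. CXCL5 and CXCL6 had no peak nearer than 51.3 and 14.7 kb. CXCL8, the interleukin-8 gene and the main neutrophil attractant of human tissue, had its nearest peak 109.8 kb away.

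The interferon-induced ligands of CXCR3, which draw activated T cells, had no peak at a gene end. CXCL9 and CXCL11 each had 1 peak within 10 kb, of 663 and 690 bp, and ART3 was the protein-coding gene nearest to both, with the CXCL9 peak centred 0.146 kb outside it and the CXCL11 peak inside it. CXCL10 lay between them with its nearest peak at 10.1 kb, just past the limit. Their receptor gene, CXCR3, is described below.

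Homeostatic ligand genes had a peak within 10 kb in 5 of 8 cases (62.5%, 24.5 to 91.5%), near the 70.2% of all protein-coding genes. None of these peaks was wider than 1029 bp. CXCL12, whose product retains stem cells and immature myeloid cells in the marrow, had a peak of 425 bp (chr10:44384401-44384825) centred 484 bp inside the gene from its start, which did not reach the promoter window printed above, and a peak of 777 bp beyond the other end at 6.58 kb. CXCL14, an epithelial chemokine, had a peak of 547 bp (chr5:135578563-135579109) centred 155 bp downstream of its start, and the peak covered 168 bases of the promoter window. CXCL13, the B cell follicle chemokine, had 1 peak of 685 bp deep inside its 100 kb gene, and CCL28, a mucosal chemokine, had 1 of 343 bp inside the gene. CCL25, the thymus and gut chemokine, had 4 peaks within 10 kb, none inside the gene, and FBN3 held 2 of them. CCL19 and CCL21, which guide dendritic and T cells to lymph nodes, had no peak nearer than 49.1 and 30.2 kb, and CCL27, a skin chemokine, none nearer than 24.7 kb. These last 3 genes make up the 9p cluster, which lay in a stretch of 103 kb without a peak.

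Inflammatory and other CC ligand genes held few peaks, and most of these genes belong to the 17q cluster. Only 1 of 21 (4.76%) carried a peak at an end, and 5 of 21 (23.8%) within 10 kb. The shares of all protein-coding genes were 37.7% and 70.2%. The 17q cluster, described below, makes up 16 of the 21, with 0 at an end and 1 within 10 kb. Outside it, CCL17, CCL22, CCL24 and CCL26 had a peak within 10 kb and CCL20 had none. CCL17, which attracts T helper cells, had a peak of 455 bp centred 392 bp beyond a gene end. Its neighbour CCL22, which acts on the same receptor, had 1 of 345 bp inside the gene, and CX3CL1, the membrane-bound chemokine fractalkine, had 1 of 702 bp inside the gene. These 3 form the 16q cluster, the only cluster in which every member had a peak within 10 kb, and the CCL22 peak also counts for CX3CL1. Of the 21 other protein-coding genes in or within 500 kb of this cluster, 19 (90.5%) had a peak within 10 kb too. CCL24 and CCL26, the eotaxin genes of chromosome 7, had 1 and 2 peaks, of 463 bp inside CCL24 and of 426 and 748 bp outside CCL26. CCL11, the eotaxin gene of the 17q cluster, had 1 of 442 bp at 9.81 kb. CCL20, the ligand of CCR6, had none nearer than 54.1 kb. The lymphocyte chemokine genes XCL1 and XCL2 had none nearer than 147 and 185 kb. CXCL16, a scavenger receptor and chemokine, and CXCL17, a mucosal chemokine, each had 1 peak within 10 kb, inside ZMYND15 and inside LIPE.

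The 17q cluster was the largest, and its genes were nearly without peaks. Of its 16 CC ligand genes, 0 carried a peak at an end (up to 20.6%), and CCL11 was the 1 gene with a peak within 10 kb (6.25%, 0.158 to 30.2%). All protein-coding genes had 37.7% and 70.2%. The cluster comprises 6 genes from CCL2 to CCL1, over 108 kb with 1 peak, and 10 genes from CCL5 to CCL4L2, over 341 kb with no peak. Between them lie 1508 kb without a chemokine gene, and that stretch held 27 peaks. CCL2, the monocyte attractant MCP-1, had its nearest peak at 40.9 kb, and CCL5, the T cell and monocyte attractant RANTES, at 106 kb. CCL3 and CCL4, which encode the macrophage inflammatory proteins, were 323 and 336 kb from any peak, the greatest distances among members. The stretch without a peak around them ran for 676 kb (chr17:35765624-36441613) and held 21 protein-coding genes, 10 of them members and 11 others. Among these others, named after their positions were seen, were TAF15, RDM1 and 5 genes of the TBC1D3 family, whose copies are near-identical. RefSeq also lists CCL3L1 and CCL4L1, near-identical copies of CCL3L3 and CCL4L2, on a contig outside the main chromosome. The part of reads that match several copies in this empty stretch was not tested.

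The 3p21 cluster, of receptor genes, held 2 peaks in its span of 0.490 Mb, of 464 and 367 bp, both between CCR9 and CXCR6. None of its 7 receptor genes had a peak in the gene or within 10 kb (up to 41.0%), where 70.2% of all protein-coding genes had one. CXCR6, XCR1, CCR1, CCR3 and CCR2 lay in a single stretch of 467 kb without a peak, and no protein-coding gene outside the chemokine receptors lay wholly inside it. CCR9, the gut-homing receptor of T cells, lay next to it with its nearest peak at 19.0 kb. CCR2 and CCR1, receptors of monocytes and their precursors, were 36.3 and 189 kb from a peak. Beyond the empty stretch lay CCRL2, a chemerin-binding relative of these receptors, which had 2 peaks in or within 10 kb of it, the wider of 1015 bp. Of the 16 other protein-coding genes in the cluster or within 500 kb of it, 15 (93.8%) had a peak within 10 kb and 10 (62.5%) at an end, a comparison chosen after the empty stretch was seen.

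The 4q cluster was mixed. Of its 10 CXC ligand genes, a peak stood at an end of 2 (20%) and within 10 kb of 5 (50%). All protein-coding genes had 37.7% and 70.2%. From CXCL8 to 1 kb past CXCL2, over 360 kb, there were 4 peaks. They lay at PF4V1 (376 bp), CXCL1, the pseudogene CXCL1P1 (329 bp, midpoint inside it) and CXCL2. The pseudogene was named after its value was seen. Besides members, the stretch held 3 protein-coding genes, PF4V1, PF4 and PPBP. All coding genes in it are thus chemokine genes, and a peak at a coding gene there could lie at no other kind. PF4 and PPBP, platelet chemokine genes of the same stretch, had no peak nearer than 36.5 and 42.1 kb. CXCL8 and CXCL6 both lay in an empty stretch of 841 kb. Other protein-coding genes in or within 500 kb of this cluster had a peak within 10 kb in 17 of 39 cases (43.6%). The count was 26 of 41 (63.4%) around 17q, 19 of 21 (90.5%) around 16q and 12 of 27 (44.4%) around 9p. Over the 5 clusters with 3 or more members, such neighbours had a peak within 10 kb in 89 of 144 cases (61.8%, 53.3 to 69.8%) and at a gene end in 45 of 144 (31.3%). The 27 members outside clusters had one within 10 kb in 17 cases (63.0%, 42.4 to 80.6%) and at a gene end in 7 (25.9%, 11.1 to 46.3%). Both intervals held the share of all protein-coding genes. Of all members, 43 (65.2%) lay in a stretch of 100 kb or more without a peak, against 28.7% of all protein-coding genes. Neighbours in a cluster often shared a stretch, such as the 10 members in the 676 kb stretch of 17q, so the 43 are not separate events. Some of them, such as CXCL9 and CCL11, also had a peak within 10 kb.

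**Figure D3:**
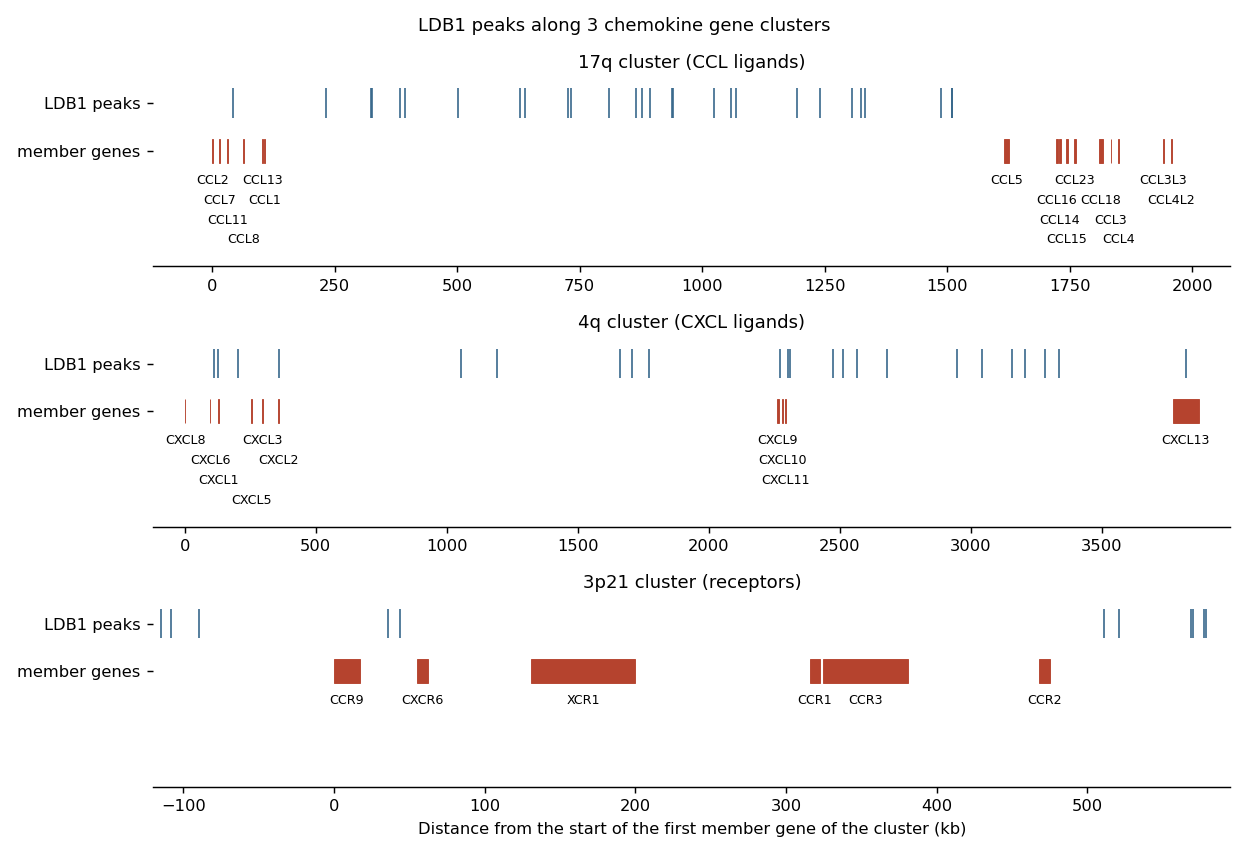
Member genes (red boxes, 1 receptor gene not drawn) and LDB1 peak midpoints (blue lines) along the 17q, 4q and 3p21 clusters, in kb from the start of the first member. On 17q the 27 peaks lie between the 2 groups of CCL genes, on 4q peaks stand at CXCL1 and CXCL2, and on 3p21 no peak lies from CXCR6 to CCR2.

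Among receptors, the CXC family carried peaks at CXCR3, CXCR4 and CXCR5, and none within 10 kb of CXCR1, CXCR2 and CXCR6. That is 3 of 6 within 10 kb (50%, 11.8 to 88.2%), against 70.2% of all protein-coding genes. CXCR4, the CXCL12 receptor that anchors leukaemic and immature myeloid cells in the marrow, had 3 peaks. The peak of 425 bp (chr2:136118081-136118505) was centred 144 bp outside the gene end and covered the whole promoter window printed above, a wider one of 910 bp lay inside the gene, and one of 459 bp lay 1.20 kb outside. CXCR3, the receptor of CXCL9, CXCL10 and CXCL11 on T cells, had 3 narrow peaks of 324 to 490 bp, and 2 of them lay inside its 2.59 kb gene. CXCR5, the CXCL13 receptor of B cells, had 5 peaks, of which 3 had midpoints inside the gene (633 to 998 bp) and the widest, 1454 bp, lay in the neighbouring gene BCL9L. CXCR1 and CXCR2, the CXCL8 receptors of neutrophils, lay in a stretch of 172 kb without a peak, 72.8 and 35.3 kb from the nearest.

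Of 10 CC receptor genes, 2 (20%, 2.52 to 55.6%) had a peak within 10 kb, against 70.2% of all protein-coding genes. The same 2 had one at an end, against 37.7%. Among the 8 with none within 10 kb, CCR1, CCR2, CCR3 and CCR9 belong to the 3p21 cluster. CCR7, which takes dendritic cells and lymphocytes to lymph nodes, had 4 peaks, and it was with CXCR3 the only member with more than 1 peak counted at its ends. Its widest, 1572 bp (chr17:40553953-40555524), lay inside the gene near the lower-numbered end, and one of 405 bp (chr17:40565230-40565634) was centred 40 bp from the other end. CCR10, the receptor of CCL27 and CCL28, had 12 peaks within 10 kb, a number that 2.92% of all protein-coding genes reached. Only 1 of the 12, of 1453 bp, had its midpoint inside CCR10. PLEKHH3 held 5 of the others and CNTNAP1 held 4, including the widest of 2804 bp (chr17:42682697-42685500). A narrow peak of 405 bp centred 571 bp outside was the only one counted at an end of CCR10, so most of its 12 peaks lay in neighbouring genes. CCR4, CCR6 and CCR8, receptors of T cell subsets, had no peak nearer than 48.6, 13.9 and 31.2 kb.

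Atypical and remaining receptor genes were unequal too. ACKR1, the Duffy antigen of red cells and venules, which binds many inflammatory chemokines, had 1 peak of 1241 bp (chr1:159204794-159206034) that covered 1160 of its 1626 bases. ACKR5, also called GPR182, had 3 peaks, of which the one of 1094 bp lay inside the gene and the 2 narrower ones lay in ZBTB39. ACKR2, which scavenges inflammatory CC chemokines, had 1 of 750 bp that lay in CYP8B1. ACKR3, a scavenger of CXCL12, and ACKR4, a scavenger of CCL19 and CCL21, had none nearer than 46.2 and 214 kb. CX3CR1, the fractalkine receptor of monocytes, had 2 peaks of 466 and 435 bp at 1.29 and 5.52 kb outside the gene, and XCR1 had none within 87.5 kb.

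**Figure D4:**
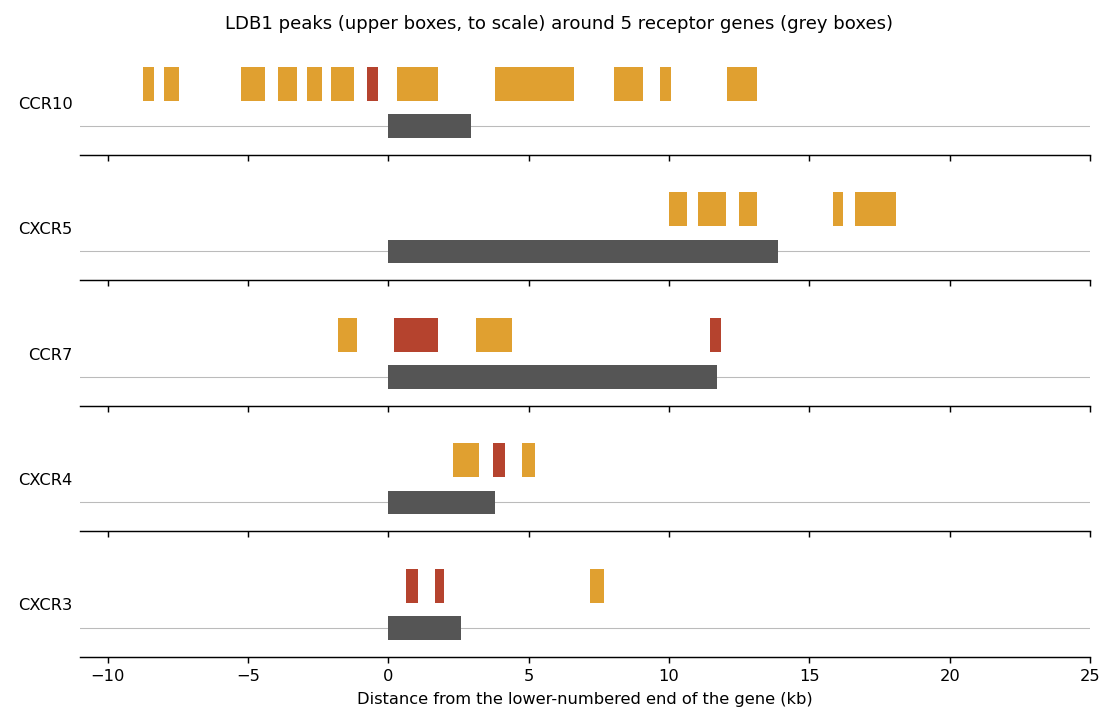
LDB1 peaks (upper boxes, drawn to width) around CCR10, CXCR5, CCR7, CXCR4 and CXCR3 (grey boxes), in kb from the lower-numbered end of each gene; dark red marks peaks with a midpoint within 1 kb of a gene end and amber the others. CCR10 has 12 peaks of which 1 has its midpoint inside the gene, and both ends of CCR7 carry a peak.

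Set beside their best known receptors, ligands fell into 4 kinds by which of the paired genes had a peak at a distance of at most 10 kb. Both genes had one for CXCL12 with CXCR4, CXCL13 with CXCR5, CXCL9 and CXCL11 with CXCR3, CX3CL1 with CX3CR1 and CCL28 with CCR10, and CXCL12 with CXCR4 was the only one of these in which both had it at a gene end. The receptor gene alone had one for CCL19 and CCL21 with CCR7, CCL27 with CCR10 and CXCL10 with CXCR3. The ligand gene alone had one for CXCL1 and CXCL2 with CXCR2, CCL17 and CCL22 with CCR4, CCL25 with CCR9, CXCL16 with CXCR6, and CCL11, CCL24 and CCL26 with CCR3. Neither gene had one for CXCL8 with CXCR1 and CXCR2, CCL2 with CCR2, CCL20 with CCR6, CCL1 with CCR8 and XCL1 and XCL2 with XCR1. Of all protein-coding genes, 70.2% had a peak in the gene or within 10 kb. Some peaks counted here lay in or nearest to other genes, as for CXCL9, CXCL11 and CXCL16. Whether these pairs differ from other pairs of genes was not tested.

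The members with a peak at their start were mostly those with CpG-rich promoters. RefSeq promoter windows were found for 46 of the 66 members and for 15812 protein-coding genes, and the first window listed for each gene was used. The CpG ratio is the number of CG dinucleotides over the number expected from the C and G content of the window. Its median was 0.201 in member windows and 0.763 in all, and 38 of 46 members (82.6%) were under 0.4, against 25.2% of all genes. The GC content had a median of 50.2% in members and 62.7% in all. A peak midpoint lay within 1 kb of the start in 7 of 46 members (15.2%), where 32.7% of all genes with a window had one. With a ratio of 0.4 or more it was 6 of 8 members (75%, 34.9 to 96.8%), against 38.7% of all such genes. These 6 were CXCL1, CXCL2, CXCL12, CXCL14, CXCR4 and CXCR5, and the 8 also held CXCL3 and CCR4. CXCR5, at a ratio of 0.407, was the nearest to the limit, and its listed start lay inside the gene as RefSeq bounds it, so that its peak there is not among those at gene ends. Under 0.4 it was 1 of 38 members (2.63%, 0.0666 to 13.8%), namely CXCR3, against 14.7% of all such genes. A later listed start of CCL24, with a ratio of 0.341, had a peak midpoint 328 bp downstream and is not in this count. The part of CpG content in the members' low share of peaks was not tested. CCR7, CCR10, ACKR1 and CCL17, the other members with a peak at a gene end, were not among the 46.

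**Figure D5:**
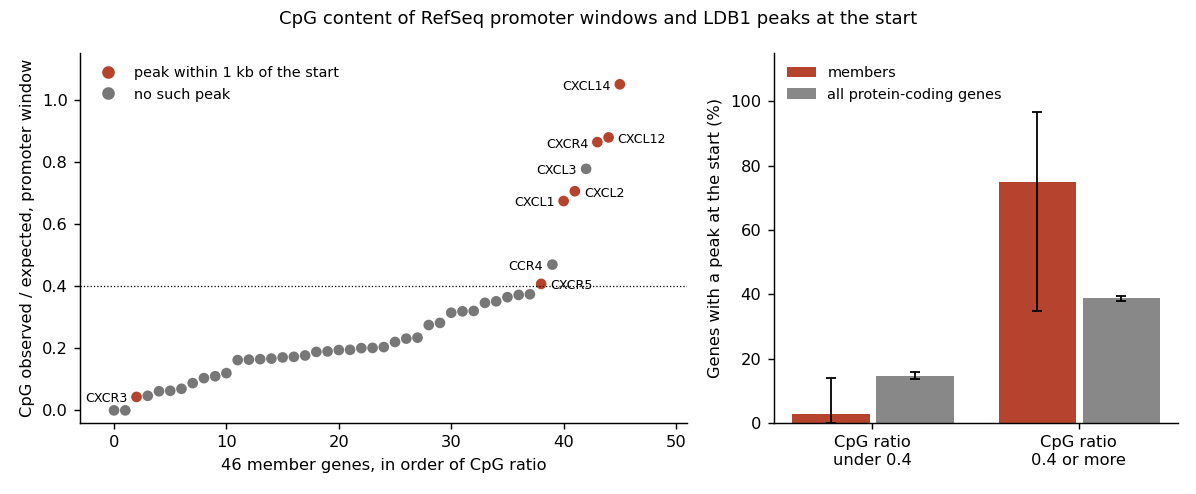
Left, the CpG observed to expected ratio of the promoter window of 46 members in rising order, with dark red where a peak midpoint lay within 1 kb of the start and the dotted line at 0.4. Right, the share of members (red) and of all protein-coding genes (grey) with such a peak in each CpG class, with exact 95% intervals: 2.63% against 14.7% under 0.4, and 75% against 38.7% at 0.4 or more.

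The promoter windows were also searched on both strands for letters of motifs known for GATA, basic helix-loop-helix, RUNX, PU.1, NF-kB and CEBP factors, the first 3 of which are known to work with LDB1 complexes in blood cells. GATAA, the GATA core, was in 17 of 46 member windows (37%), against 18.2% of all windows, and in 0 of the 4 member windows that a peak touched, those of CXCL1, CXCL2, CXCL14 and CXCR4. The E-box letters CANNTG were in 32 of 46 member windows (69.6%), against 64.5% of all, and in 1 of the 4 touched windows. Of the E-box forms counted within it, CAGCTG was in 7 of 46 member windows (15.2%), against 17.7% of all. The form CAGGTG was in 11 of 46 member windows (23.9%), against 19.9% of all. No touched window held either form. A RUNX site, TGTGGT, was in 14 of 46 member windows (30.4%), against 10.8% of all, and in 1 of the 4 touched windows. The PU.1 core GAGGAA was in 19 of 46 member windows (41.3%), against 27.6% of all, and likewise in 1 of the 4. The letters TTTCC were in 37 of 46 member windows (80.4%), against 59.4% of all, and in each of the 4 touched windows. Of these 4, CXCL1 and CXCL2 are close copies, and the CXCL3 window, which no peak touched, held TTTCC too. A peak touched 4 of 46 member windows (8.70%), against 24.7% of all. Part of a CEBP site, TTGCGNA, was in 1 of 46 member windows (2.17%), against 5.56% of all, and that window was a touched one. A match to letters is a description and not a bound site, and the part of the lower GC content of member windows in these shares was not tested.

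Genes that act after the receptors are longer than the members, with a median of 50.1 kb against 4.81 kb. Of 36 signalling genes, from G protein subunits to cytoskeletal regulators, 20 (55.6%, 38.1 to 72.1%) carried a peak at an end and 28 (77.8%, 60.8 to 89.9%) within 10 kb, where 37.7% and 70.2% of all protein-coding genes and 38.2% and 74.6% of those over 20 kb did. The difference from the members was not tested. PTK2B, the kinase PYK2, had 20 peaks of up to 3017 bp, and PXN, its adaptor paxillin, had 17 of up to 2249 bp. GRK5, a kinase that desensitises receptors, had 11, RAC1, a GTPase of cell movement, had 10, and GNAI2, the inhibitory G protein subunit through which leukocyte receptors signal, had 9. Next in width to PTK2B were STAT3 at 2771 bp and PLCB3, a phospholipase C, at 2257 bp, followed by PXN and by GNB2, a G protein subunit, at 1893 bp. Of 20 receptors for other chemoattractants, 7 (35%, 15.4 to 59.2%) carried a peak at an end and 16 (80%, 56.3 to 94.3%) within 10 kb. Both intervals held the share of all protein-coding genes, 37.7% and 70.2%. C5AR2 and GPR35 had 8 and 6 peaks, and C5AR1, PTGDR2, S1PR4 and S1PR5 had 4 each. FPR3, a formyl peptide receptor, had the widest at 1934 bp, OXER1, a receptor for oxidised lipids, had 1631 bp, and C5AR1 and C5AR2, the neighbouring complement C5a receptor genes, both had 1609 bp. Neighbouring genes can share peaks, so this width may come from a single peak counted for both. S1PR4 followed at 1471 bp. The difference of these receptor genes from the chemokine receptors was not tested.

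Chemokine genes with symbols of other kinds were counted apart, in a mixed list that also held genes of related proteins, such as chemerin and the CMTM family. Of these 13 genes, 9 (69.2%, 38.6 to 90.9%) carried a peak at an end and 10 (76.9%, 46.2 to 95%) within 10 kb, against 37.7% and 70.2% of all protein-coding genes. These shares are those of the mixed list and not of chemokine genes alone. Among PF4, PF4V1 and PPBP, PF4V1 alone had a peak at an end. The difference of the 13 genes from the members was not tested. RARRES2, which encodes chemerin, had 6 peaks (widest 1463 bp), and its receptor gene CMKLR1 had 1 of 559 bp. CMTM3 and CMTM7 had 5 peaks each, CKLF and CMTM6 had 2 each, and CMTM1 and CMTM2 shared 1 of 339 bp. That peak lay 0.151 kb from CMTM1 and 0.177 kb from CMTM2, so it counts at an end of both genes. CKLF, CMTM1, CMTM2 and CMTM3 are neighbours on chromosome 16, and others of them can share peaks too. MIF, a cytokine that binds CXCR2 and CXCR4, had none nearer than 39.7 kb.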

How the data were processed

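CUT&Tag libraries of untreated NB4 cells were made with a Vazyme kit, per the labels' protocols. The submitters' processing notes name the hg38 build, Bowtie2 2.4.1 and MACS2 2.0.10, with no parameters, threshold or control given in the sources used here. The deposited LDB1 table gives, per the file headers, the chromosome, start, end and length of each peak in bp and no signal, fold, score or p-value, so width was the only measure per peak and the depth is unknown. The peaks came from 1 library and were not pooled. Deeper sequencing or a looser threshold gives more and wider peaks.

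Genes came from the RefSeq GRCh38.p14 table without rows on other contigs, and promoter windows from the RefSeq window table. A peak was assigned by its midpoint. Gene clusters were runs of at least 3 members no more than 2 Mb apart. Shares carry exact (Clopper-Pearson) intervals from scipy 1.17.1. The assignment was tested on simulated peaks. Every member may be named; of the signalling and other chemoattractant lists the 5 genes with the widest peak and the 5 with the most peaks, with ties, were named. The genes, lists and motifs were chosen with earlier results of these data known, and the CpG limit, the neighbour distance and the 100 kb limit were set with the files in hand. The alternatives were other distances, overlap, wider peaks, the transcription start alone and subsets of members. No comparison with IgG was made. The values of 1 receptor gene are not reported here, though it is counted in the shares.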

Additional observations from a re-analysis of the deposited data

Results flagged for a closer look

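The LDB1 list held 88 peaks on alternate contigs of chromosome 17, which no comparison above uses, while the members of the 17q cluster from CCL5 to CCL4L2 had 0 on the main chromosome. This was singled out as a signal in data that the comparisons left aside. RefSeq places CCL3L1 and CCL4L1 on a contig outside the main chromosome. Which of the 88 peaks, if any, lie at chemokine genes was not tested.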

How the results depend on the processing

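The share of members with a peak stayed below that of all protein-coding genes under every setting run, at 0.187 to 0.473 of it for gene ends and 0.303 to 0.756 for 10 kb. Counts moved by over 1.5 times as follows, and the cause was not tested unless fewer peaks, fewer genes or a changed window gives it. With the widest 50% of peaks the counts at gene ends were 3 members, 1 ligand and 2 receptors, and within 10 kb 16 members and 9 ligands. With the widest 25% they were 2 members, 0 ligands and 2 receptors at gene ends, and 7 members and 1 ligand within 10 kb. Receptors at gene ends numbered 2 within 500 bp, 8 within 2500 bp and 3 of 15 at the transcription start alone. Without genes set aside as copies of other members, close copies among them, 3 of 33 ligands had a peak at a gene end. In the gene body only, 15 members and 8 ligands had a peak, and with a flank of 50 kb, 43 members and 18 receptors did. Alternatives added after seeing the data were leaving out the empty 17q stretch, with 26 of 56 members (46.4%) within 10 kb against 70.3% of all genes, and a CpG limit of 0.6, with 5 of 6 members (83.3%) against 39.2%. With no score or depth per peak, a stricter threshold than the authors' could not be applied other than by width, and a gene without a peak had none listed at an unknown depth. No paired analysis was possible because there was 1 library per antibody.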
